A study of Mus musculus with 13 samples.

Results

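Doxorubicin (DOX) alone was compared with no treatment in 4T1 cells, over all genes and with interferon, glycolysis and replication histone genes set aside. The differences are between 7 of the 13 libraries of the series, the 4 labelled as DOX and the 3 labelled as control, while the spread behind the p-values was estimated from all 13. 4T1 is a mouse mammary carcinoma line used as a model of triple negative breast cancer, and the cells here were the 4T1-Thy1.1 line, which carries a Thy1.1 transgene. All wells were seeded in DMEM/F12 with FBS, whereas the paper's methods name RPMI with FBS for 4T1 culture. Treatment began at 25% confluency and lasted 48 hours. DOX wells received 200 ng/mL DOX, and control wells received neither DOX nor IL-17A. The other 6 libraries, 3 with 25 ng/mL IL-17A and 3 with the same dose of IL-17A together with 200 ng/mL DOX, served as a second DOX comparison, between groups that share no library with the first. All groups are a single line, and nothing in the labels says whether replicates were separate cultures, so p-values measure the spread between libraries, which may be technical.

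Doxorubicin is an anthracycline that slips between DNA bases and traps topoisomerase II on broken DNA. It also displaces histones and takes part in redox cycling. Cells meet such damage with checkpoint and repair genes, with p53-driven arrest or death, with NF-kB-driven secretion, and with the integrated stress response, in which the factor ATF4 turns on genes for amino acid supply and for recovery of translation.

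The libraries held from 6583757 to 16930600 reads on listed genes in control and from 6477647 to 11692332 with DOX, and a value of 3 reads equals 0.183 to 0.508 normalized units in control and 0.241 to 0.419 with DOX (counting error only). Control replicate 1 stood apart, with 1297 genes at 0 against 684 and 707 in the other control libraries. DOX replicate 1 carried muscle transcripts (summed value of 8 marker genes 248, against 14.7 to 37.0 in the other DOX libraries and 12.7 to 46.7 in control). It also carried red blood cell transcripts (3 listed markers, 66.5 against at most 5.47 in the other DOX libraries and 0.943 to 14.4 in control). Control replicate 1 was the highest control library for each of these sums. Results are therefore also given without both libraries. Markers of the carcinoma line were present, with 10 of 10 epithelial markers listed. Their summed value was 2062 to 2472 in control and 1141 to 1226 with DOX, and 2 of the 9 tested, *Krt19* and *Epcam*, fell. *Krt19*, an epithelial keratin, had values of 119, 225 and 255 in control and of 50.1, 37.1, 47.5 and 42.7 with DOX (log2 fold change -2.08, adjusted p = 0.00011, limma). In bulk RNA, fewer cells carrying a transcript and less transcript per cell cannot be told apart. The 5 endothelial markers were not among the listed genes. Of 8 leukocyte markers 5 were listed, and their summed value was 19.9 to 20.3 in control and 25.9 to 51.3 with DOX, with *Ptprc*, which marks leukocytes, between 0.061 and 1.52 in all 7 libraries. Of the 3 leukocyte markers tested 1 rose, *Cd14*, a receptor for bacterial lipopolysaccharide, from 1.18, 5.66 and 2.71 to 12.9, 24.9, 7.55 and 8.67 (1.80, adjusted p = 0.010 with all libraries and 0.062 without control replicate 1 and DOX replicate 1, limma). Fibroblast markers (5 of 7 listed) summed to 143 in control replicate 1, to 48.2 and 50.2 in the other control libraries and to 27.9 to 78.1 with DOX. The part of these other cell types in the results was not tested, beyond the values without both libraries.

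DOX changed genes in both directions. Of 12319 genes tested, 1127 rose (9.15%) and 761 fell (6.18%). Without control replicate 1 and DOX replicate 1, 901 rose (7.16% of 12581 tested) and 722 fell (5.74%), of which 704 and 507 were among the first calls. A fit of the 7 libraries alone gave 998 rises and 685 falls. Every DOX library was higher than all control libraries in 2274 of the genes tested (18.5%) and lower in 1872 (15.2%). The median log2 fold change of all genes was 0.09 with the deposited TMM scaling and 0.24 when libraries were scaled by size alone, and the share of called genes that rose was 59.7% and 75.6%. Differences below are on the scale of log2(value + 1), on which changes of weakly expressed genes come out understated. They are relative to that median and scaling. The lists set aside gave 127 rises and 0 falls of 164 interferon genes, 2 rises and 13 falls of 26 glycolysis genes, and 0 rises and 32 falls of 61 replication histone genes.

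The genes that rose most had varied roles. *Plekhs1*, a gene for a pleckstrin homology domain protein, lies on chr19:56461640-56486752, plus strand. It had values of 4.23, 1.64 and 2.59 in control and of 99.6, 99.6, 86.7 and 114 with DOX. The groups lay far apart (log2 fold change 4.77, standard error 0.36). *Tnfsf15*, a TNF family ligand, had values of 7.78, 1.16 and 0.707 in control and of 30.4, 28.8, 43.5 and 53.3 with DOX. Control replicate 1 was the highest control, and the difference was 3.61 on the log2 scale (standard error 0.47, adjusted p = 0.00014, limma). *Edn1*, the gene for the vasoactive peptide endothelin-1, was tight in control at 3.21, 3.23 and 3.54. With DOX it stood at 33.1, 37.6, 62.2 and 50.8 (3.40, adjusted p = 1.9e-06). *Bcl2l15*, a BCL2 family member, had values of 10.3, 9.19 and 5.30 in control and of 79.3, 70.8, 85.8 and 75.2 with DOX (3.13, adjusted p = 8.4e-06). *Lactb*, which encodes a mitochondrial serine protease-like protein, and *Snhg15*, a small nucleolar RNA host gene, rose by log2 fold changes of 2.49 and 2.55. The rule for naming these genes required groups that did not overlap.

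Some of the largest rises leaned on control replicate 1. *Ccdc115*, which encodes an assembly factor of the vacuolar proton pump, had values of 2.88, 33.7 and 12.1 in control and of 91.2, 108, 77.0 and 81.6 with DOX. Its log2 fold change was 2.89 with all libraries and 2.06 without control replicate 1 and DOX replicate 1 (adjusted p = 0.020). *Rnf181*, a ubiquitin ligase gene, was at 0, 37.3 and 18.4 in control and at 61.4, 69.2, 57.2 and 67.1 with DOX. Its 2.83 became 1.26 (adjusted p = 0.066) without both libraries, and the call was lost. *Gm13363*, annotated as a processed pseudogene whose reads may belong in part to its parent gene, went from 2.59 to 1.86. *Cxcl1*, a chemokine that attracts neutrophils, was uneven among the DOX libraries instead, at 359, 501, 97.9 and 84.9, and lost its call without both libraries (2.66 with all, 2.24 and adjusted p = 0.074 without, limma). Of the 12 genes, 10 were still called without both libraries.

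**Figure D1:**
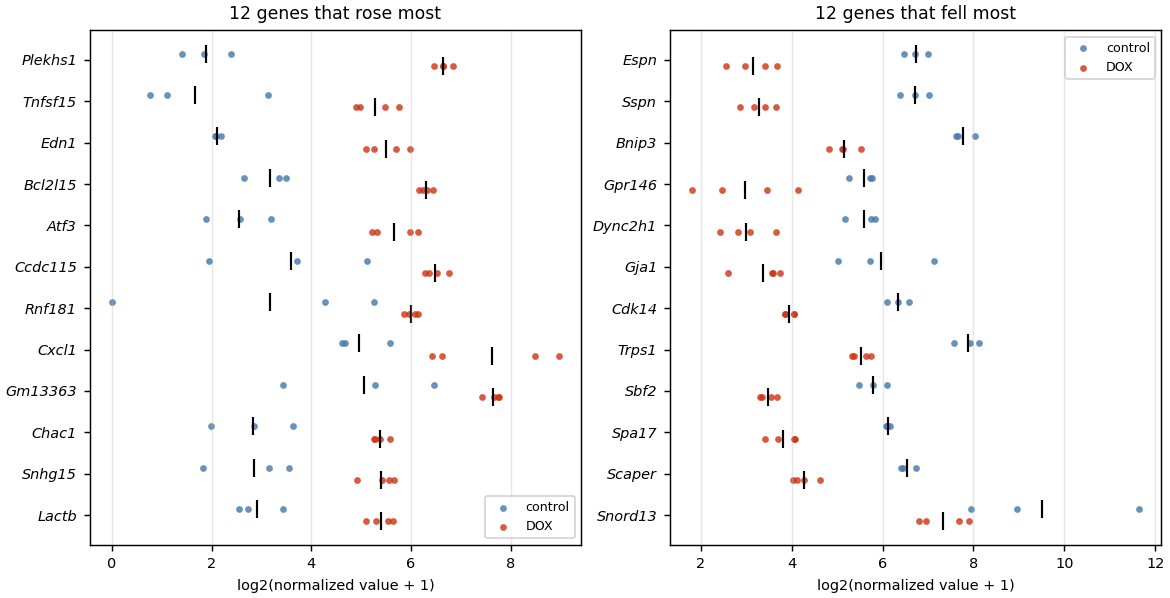
The 12 genes that rose most and the 12 that fell most under the naming rule, as log2(normalized value + 1) on the horizontal axis. Each point is a library (blue control, n = 3, red DOX, n = 4) and each black bar is a group mean. The DOX points of *Plekhs1* lie far to the right of the control points, while *Rnf181* and *Snord13* each have a control library, replicate 1, far from the other two.

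The genes that fell most included genes of the cytoskeleton, of cell contact and of cilia. *Espn*, which bundles actin filaments, had values of 126, 88.0 and 105 in control and of 11.8, 4.93, 9.65 and 6.89 with DOX. *Sspn*, for sarcospan of the dystrophin complex, had values of 82.6, 105 and 128 in control and of 9.66, 11.6, 6.29 and 8.05 with DOX. Both groups were well apart, with log2 fold changes of -3.57 and -3.43. *Bnip3*, a mitophagy receptor induced by low oxygen, went from 194, 200.3 and 261 to 44.7, 27.3, 34.1 and 33.4 (-2.62, adjusted p = 1.2e-05, limma). *Dync2h1*, the heavy chain of the ciliary dynein motor, fell by 2.59 and *Cdk14*, a cyclin-dependent kinase, by 2.39. *Trps1*, a GATA-type repressor known as a marker of breast epithelium, went from 190.1, 240.3 and 279 to 52.6, 48.8, 39.4 and 40.5 (-2.35, adjusted p = 8.5e-06). *Gja1*, which encodes the gap junction protein connexin 43, fell from 139.9, 31.4 and 52.1 to 10.9, 5.04, 12.4 and 11.0, with control replicate 1 the highest. *Gpr146*, a G protein-coupled receptor gene, *Sbf2*, a myotubularin family gene, *Spa17*, a sperm surface protein gene, and *Scaper*, a cyclin A-binding protein gene, had log2 fold changes of -2.61, -2.32, -2.31 and -2.27. *Snord13*, a small nucleolar RNA, was at 3197 in control replicate 1 and at 245 and 498 in the others, and at 239.9, 205, 123 and 109.8 with DOX. Its log2 fold change of -2.18 became -1.31 without both libraries. All 12 genes were still called without both.

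Several of these genes span very long stretches of the genome. *Cdk14* covers 616.9 kb, *Scaper* 388.2 kb, *Sbf2* 306.9 kb, *Dync2h1* 255.9 kb and *Trps1* 235.7 kb. Of the 11 genes that fell most and matched a protein-coding gene, 5 were longer than 100 kb, and of the 10 such genes that rose most, 0 were. This led to a comparison by gene span, chosen after the values were seen and given as a description. Among 11378 tested genes matched to a single protein-coding gene (92.4%), the median span was 24.4 kb, against 16.9 kb for those called up and 41.4 kb for those called down.

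The log2 fold change declined along gene span. Its median was 0.20 in 2698 genes under 10 kb, 0.24 in 3809 genes of 10 to 30 kb, 0.01 in 3407 genes of 30 to 100 kb, -0.30 in 961 genes of 100 to 200 kb and -0.36 in 503 genes over 200 kb. Of the genes over 200 kb, 22.3% were called down and 8.75% up, and of those under 10 kb, 5.97% were called down and 11.7% up. Without control replicate 1 and DOX replicate 1 the medians at both ends were 0.15 and -0.39. The difference was visible in every library. The median log2(value + 1) of genes over 200 kb minus that of genes under 10 kb was -0.18, -0.25 and -0.29 in control and -0.95, -0.88, -1.05 and -0.98 with DOX. It was -0.52, -0.16 and -0.41 with IL-17A and -1.07, -0.81 and -0.97 with DOX+IL-17A, so no library with DOX overlapped a library without it. Across genes the Spearman correlation of span with log2 fold change was -0.17, and -0.12 for the length of the longest coding transcript (genes share libraries and are not replicates). Between IL-17A and control, both without DOX, the correlation of span with the log2 difference was -0.098. The median of that difference was 0.06 in genes under 10 kb and -0.06 in genes over 200 kb.

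The decline differed with expression level. Genes were divided into 4 equal bins by mean value. In the lowest bin, genes over 200 kb had a higher median (0.49) than genes under 10 kb (0.15). In the next bins the difference between long and short genes was -0.64, -1.11 and -0.94 on the log2 scale. In 4 bins by the GC content of the transcript, it was -0.88, -0.77, -0.44 and -0.55 from low to high GC. In 4 bins of transcript length, it was -0.82, -0.44, -0.67 and -0.67 from short to long.

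**Figure D2:**
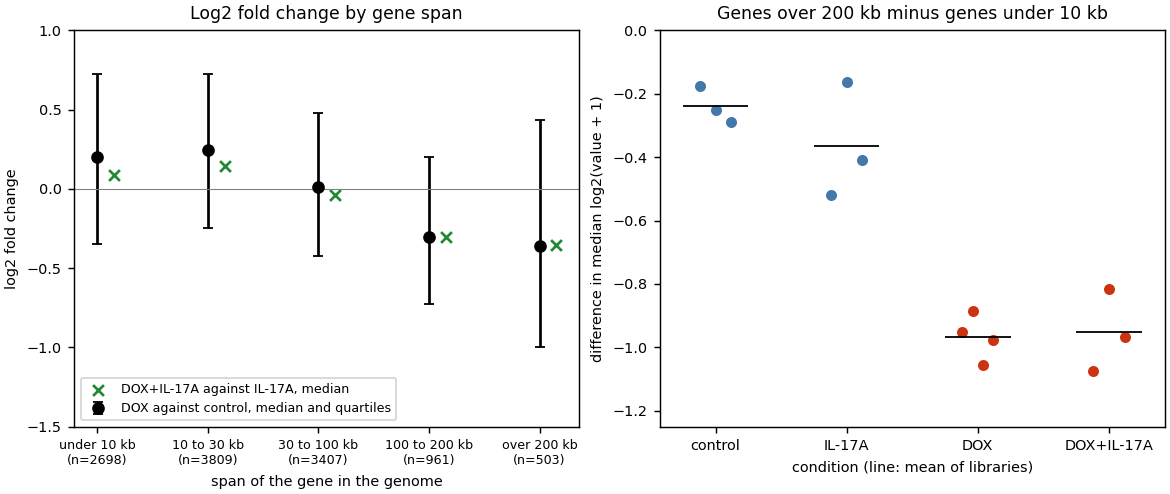
Left, log2 fold change of protein-coding genes in 5 bins of span, with points for the median and bars for the quartiles of DOX against control, and crosses for the median of DOX+IL-17A against IL-17A. Right, the median log2(value + 1) of genes over 200 kb minus that of genes under 10 kb, with a point for each of the 13 libraries and a line for the mean of each condition. The medians run from 0.20 in the shortest to -0.36 in the longest genes, and the libraries with DOX lie between -1.07 and -0.81 while those without lie between -0.52 and -0.16.

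DOX was also accompanied by transcripts that were nearly absent in the control libraries. Of 13222 listed genes, 36 (0.272%) had at most 3 reads over the 3 control libraries and at least 10 in every DOX library, 34 of them outside the interferon, glycolysis and histone lists. *Il6*, an inflammatory cytokine, had 0 reads in all control libraries and 38, 32, 46 and 76 reads with DOX. This was at least 49.4-fold higher, taking 3 reads over the control group as the floor. *Sycp1*, a protein of the meiotic synaptonemal complex, had 0 control reads and 38, 52, 57 and 56 reads with DOX (at least 52.3-fold higher). Both also had 0 reads in the 3 IL-17A libraries, and 359 and 157 reads in sum with DOX+IL-17A. *Tg*, for thyroglobulin, *Cpq*, a carboxypeptidase gene, and *Bank1*, a B cell scaffold gene, were at 0 reads in control and in IL-17A libraries as well. They held 117, 100 and 89 reads in sum with DOX, at least 30.1-fold, 25.8-fold and 22.9-fold higher. *Lce1g*, a late cornified envelope gene with near-identical neighbours among which reads may be split, had 1 read in control and 143, 65, 28 and 91 with DOX, a ratio of 253 (95% exact counting interval 45.0 to 10008). Such intervals cover counting error only, and replicates differed by 7.89 to 186 times the counting variance over all genes. These genes were chosen by these reads, so the ratios are a description. The chemokine genes *Ccl17* and *Ccl2* had 3 and 1 control reads, with ratios of 41.5 (13.9 to 203) and 112 (19.8 to 4454). *Lce1g*, *Ccl17* and *Ccl2* had 17, 28 and 6 reads in sum in the IL-17A libraries, which received no DOX. In the reverse direction 1 gene (0.00756%) met the rule. *Arhgap33* had 13, 20 and 19 reads in control and 0 in every DOX library, at least 22.4-fold lower, and also 0 in IL-17A replicate 2.

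The targets of the drug were unevenly changed. *Top2b*, the topoisomerase II form found in all cells, had values of 168, 182 and 199.9 in control and of 71.3, 74.8, 67.8 and 65.3 with DOX. The groups did not overlap (log2 fold change -1.38, adjusted p = 0.00018, limma). *Top2a*, the form of dividing cells, stood at 2250.2, 1710.2 and 1793 in control and at 1531, 1394, 1663 and 1567 with DOX, and its log2 fold change of -0.31 did not pass (adjusted p = 0.35). *Top1*, *Top3b* and *Top1mt*, the mitochondrial form, had -0.16, -0.34 and 0.27 and did not pass either. *Top3a*, which resolves linked DNA strands, was at 2.71, 3.53 and 2.71 in control and 8.13, 9.09, 12.3 and 5.63 with DOX. Its rise of 1.26 lost its call without control replicate 1 and DOX replicate 1 (adjusted p = 0.084).

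Among the pumps that carry doxorubicin out of cells, *Abcg2*, the breast cancer resistance protein, rose. It had values of 8.29, 6.88 and 10.3 in control and of 25.2, 27.3, 50.1 and 41.3 with DOX (log2 fold change 1.92, adjusted p = 0.00039, limma). *Abcb1b*, for P-glycoprotein, was at 252, 84.7 and 85.9 in control and at 115, 132, 127 and 126 with DOX. Control replicate 1 alone lay above the DOX libraries, and the log2 fold change was 0.03 with it and 0.58 (adjusted p = 0.20) without both libraries. *Abcb1a*, a near copy of *Abcb1b* with which reads may be shared, rose from 0.677, 5.66 and 2.24 to 5.23, 9.74, 11.6 and 8.58 with groups that overlapped, and the call was lost without both libraries (adjusted p = 0.066). *Abcc5*, another efflux pump, rose by 1.63, and by 1.01 without both. *Akr1b3*, an aldose reductase that can reduce the drug's carbonyl group, had values of 25.7, 71.1 and 63.9 in control and of 208, 229, 235 and 243 with DOX (2.20, adjusted p = 0.00081). Of the 34 tested genes for drug targets and handling, 5 rose (14.7%) and 3 fell (8.82%), with a median log2 fold change of 0.07. Beside *Top2b*, the members that fell were the pump gene *Abcc3* (-1.31) and the reductase gene *Akr7a5* (-1.39). Without both libraries *Akr7a5* kept its call and *Abcc3* lost it.

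Genes of the integrated stress response rose in number. Of 34 tested ATF4 target genes, 15 rose (44.1%) and 1 fell, with a median log2 fold change of 1.08, against 0.09 over all genes. Without control replicate 1 and DOX replicate 1, 13 rose. *Atf3*, a stress factor, went from 8.12, 4.93 and 2.71 to 39.1, 36.0, 69.5 and 62.4 (3.12, adjusted p = 0.00014, limma). *Chac1*, which degrades glutathione, went from 6.26, 11.3 and 2.95 to 40.8, 47.0, 37.2 and 37.8 (2.55, adjusted p = 0.00025). *Ppp1r15a*, a phosphatase subunit that restores translation, and *Ddit3*, the death-linked factor CHOP, rose by 2.04 and 1.86. The tRNA charging enzymes *Wars* and *Aars* rose by 1.63 and 1.58, of which *Wars* is also on the interferon list. *Atf4* itself was at 9.30, 3.90 and 2.95 in control and at 10.6, 5.36, 8.67 and 4.20 with DOX, and did not pass (0.42, adjusted p = 0.46). The member that fell was *Ddit4*, an inhibitor of mTOR that is also a hypoxia target.

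The promoters of these genes were searched for the C/EBP-ATF response element, the composite site that ATF4 binds with a C/EBP partner. The letters TGATGNAAN (N is any base) were searched on both strands of the 250 bases before each RefSeq start (GRCm38.p6). They were found in 2.43% of 9424 tested genes with a promoter sequence, in 3.51% of genes called up, in 1.11% of genes called down and in 10 of the 30 ATF4 targets with a sequence. Of those 10, 4 rose (40%), against 44.1% of the 34 tested targets. These 4 are shown, 5′ to 3′ on the strand of the gene, with the match in capitals. All 4 matches are on the opposite strand and so read as the reverse complement. They are the windows chr1:191183406-191183474 (minus strand), chr2:119351018-119351086, chr8:111033699-111033767 and chr8:94386286-94386354 (plus strand).
Atf3: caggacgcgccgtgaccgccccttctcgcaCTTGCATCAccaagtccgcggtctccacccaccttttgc
Chac1: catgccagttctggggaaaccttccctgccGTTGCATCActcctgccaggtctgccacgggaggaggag
Aars: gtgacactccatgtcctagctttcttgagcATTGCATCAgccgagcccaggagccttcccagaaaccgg
Herpud1: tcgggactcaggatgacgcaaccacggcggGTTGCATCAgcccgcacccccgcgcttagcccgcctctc
In *Atf3*, *Aars* and *Herpud1* the match ends 102, 104 and 104 bases before the start, and in *Chac1* 185 bases before it. *Aars*, which charges tRNA with alanine, went from 78.8, 104 and 75.4 to 221, 254, 261 and 294, and *Herpud1*, a gene of protein degradation at the endoplasmic reticulum, rose by 1.5. A match is a run of letters, and binding was not measured.

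**Figure D3:**
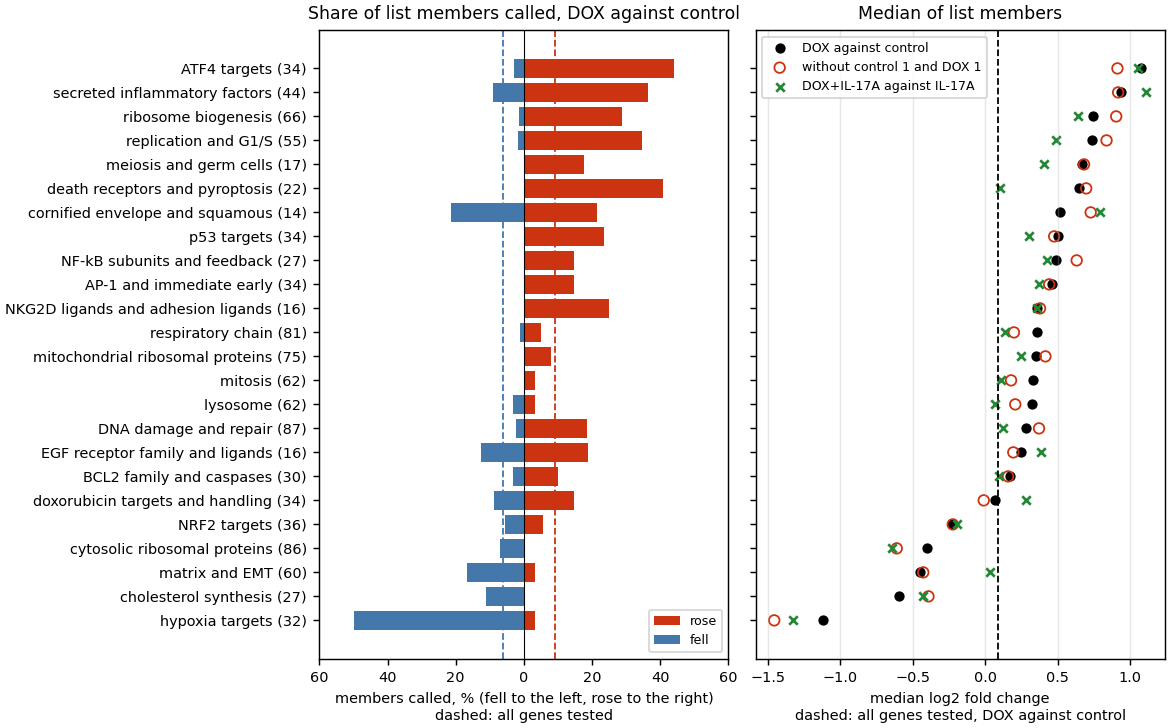
Left, the share of tested members of each gene list other than the interferon, glycolysis and histone lists (number in parentheses) that rose (red, to the right) or fell (blue, to the left) with DOX, with dashed lines at the shares over all genes, 9.15% and 6.18%. Right, the median log2 fold change of each list with all libraries (black), without control replicate 1 and DOX replicate 1 (open) and for DOX+IL-17A against IL-17A (crosses), with a dashed line at 0.09. ATF4 targets (44.1% up) and hypoxia targets (50% down) have the largest shares among the lists drawn.

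Some genes that start DNA replication rose. Of 55 replication and G1/S genes, 19 rose (34.5%) and 1 fell, with a median log2 fold change of 0.73. *Cdc6*, which loads the replicative helicase, went from 20.5, 21.1 and 16.5 to 85.7, 71.2, 75.2 and 86.6, with groups far apart (1.99, adjusted p = 2.4e-05, limma). *Orc6* and *Orc1*, subunits of the origin recognition complex, rose by 2.10 and 1.55, and *Gins3*, a helicase cofactor, by 1.56. *Pola2*, a subunit of DNA polymerase alpha, rose from 4.74, 59.4 and 35.2 to 68.3, 83.3, 97.0 and 85.7, but not without both libraries (0.94, adjusted p = 0.076). *Pola1*, the catalytic subunit of the same polymerase, was the member that fell. Without both libraries 18 members rose and 0 fell. Of 62 mitosis genes, 2 rose, *Espl1*, which encodes separase, and *Mad2l1*, a spindle checkpoint gene, and without both libraries 0 did. The median of the list was 0.33.

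Repair genes were called mostly upward. Of 87 DNA damage and repair genes, 16 rose (18.4%) and 2 fell. Without both libraries the list gave 14 rises and 2 falls, which were not all the same genes. *Fen1*, a flap nuclease, went from 50.8, 36.1 and 16.7 to 118, 142, 125 and 99.3 (log2 fold change 1.90). *Ogg1*, which removes oxidized guanine, rose by 1.76 from low values, with 0.169, 2.56 and 1.77 in control and 2.74, 10.1, 8.81 and 7.42 with DOX. *Rad54l* and *Fancb*, of recombination and crosslink repair, rose by 2.22 and 1.83, and neither kept its call without both libraries (adjusted p = 0.097 and 0.051). The members that fell were *Xrcc4*, an end-joining factor whose gene spans 315.6 kb, and *Wee1*, a kinase that holds back mitosis. *Xrcc4* kept its call without both libraries and *Wee1* lost it.

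Some targets of p53 rose. 4T1 cells are known to lack functional p53, so the list is named for the genes and not for the factor. Of 34 tested, 8 rose (23.5%) and 0 fell, with a median of 0.50. With both doubted libraries left out, control replicate 1 and DOX replicate 1, 7 rose and 2 fell. *Plk2*, a stress-responsive polo-like kinase, went from 16.9, 8.89 and 11.0 to 47.8, 65.6, 52.8 and 47.8 (2.07, adjusted p = 0.0011, limma). *Plk3*, a related kinase, *Aen*, an apoptosis-enhancing nuclease, and *Tigar*, a sugar phosphatase, rose by 2.0, 2.16 and 1.94, and *Fas*, a death receptor, by 1.48. *Cdkn1a*, for the arrest protein p21, was at 31.3, 29.0 and 28.8 in control and at 50.7, 42.5, 66.5 and 38.9 with DOX, and *Mdm2*, the p53 ubiquitin ligase, at 54.3, 85.2 and 105 and at 112, 135, 125 and 145. In both genes the groups were apart, as in 18.5% of all genes, and neither passed (adjusted p = 0.073 and 0.078, limma). The transcript of *Trp53* itself rose from 2.20, 1.70 and 3.30 to 8.69, 10.3, 9.93 and 8.32 (1.62, adjusted p = 0.010).

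Among apoptosis regulators 3 of 30 rose and 1 fell, close to the shares over all genes. *Casp4*, the mouse inflammatory caspase-11, went from 1.02, 0.061 and 0.118 to 3.94, 4.82, 6.15 and 7.96 (2.29, adjusted p = 0.0010, limma). *Bid*, a link from death receptors to mitochondria, went from 14.7, 50.6 and 21.8 to 116, 165, 92.0 and 89.8, a rise of 2.10 that was lost without both libraries (adjusted p = 0.11). *Bmf*, a pro-apoptotic member, fell by 1.85 with groups that overlapped, at 3.21, 11.0 and 11.4 in control and 3.38, 1.53, 0 and 1.88 with DOX. Of 22 death receptor and pyroptosis genes 9 rose (40.9%) and 0 fell, and 6 rose without both libraries, where 1 fell. *Tnfrsf9*, the receptor 4-1BB, went from 0.677, 1.52 and 1.77 to 27.0, 14.6, 9.23 and 9.93. *Tnfrsf21*, or death receptor 6, rose by 2.46, and *Gsdmc2*, a pore-forming gasdermin with close relatives among which reads may be split, by 1.67, from 0, 0 and 0.118 to 2.01, 2.96, 3.22 and 1.34.

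Secreted inflammatory factors rose in 16 of 44 genes (36.4%) and fell in 4, with a median of 0.94. Without control replicate 1 and DOX replicate 1, 11 rose and 3 fell. *Ccl20*, a chemokine for lymphocytes and dendritic cells, went from 1.69, 1.1 and 0.118 to 21.1, 73.5, 15.2 and 9.39, with DOX replicate 2 far above the others (3.63, adjusted p = 0.0031, limma). *Icam1*, an adhesion ligand of leukocytes, went from 0, 1.89 and 1.18 to 14.2, 18, 19.7 and 29.9 (3.49, adjusted p = 2.6e-05). *Serpinb2*, an inhibitor of plasminogen activation, went from 0, 0.365 and 0 to 7.08, 7.88, 10.2 and 4.74. *Cxcl1* spanned 84.9 to 501 with DOX and 23.7 to 46.9 in control. The members that fell were *Il1b*, an interleukin, *Ptges*, a prostaglandin synthase, *Igfbp4*, an insulin-like growth factor binding protein, and *Vegfa*, an angiogenic factor.

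Promoters of this list were searched for a kappa B site, the kind that NF-kB dimers bind, spelled as GGG, then any 2 bases, then TTTCC, on both strands of the same 250 bases. They occurred in 1.85% of the 9424 genes, in 4.08% of genes called up, in 1.3% of genes called down and in 6 of 33 secreted factors with a sequence. All 6 of these rose. Each window is shown 5′ to 3′ on the strand of its gene, with the first match in capitals. They lie at chr1:83116656-83116725, chr5:90891126-90891195, chr5:90903772-90903841, chr5:30013040-30013109, chr5:90785998-90786067 (plus strand) and chr3:107760584-107760653 (minus strand).
Ccl20: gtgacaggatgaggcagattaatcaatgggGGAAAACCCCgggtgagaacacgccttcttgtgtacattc
Cxcl1: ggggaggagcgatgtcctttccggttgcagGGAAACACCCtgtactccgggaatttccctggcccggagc
Cxcl2: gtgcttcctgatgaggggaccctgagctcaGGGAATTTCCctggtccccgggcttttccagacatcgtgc
Il6: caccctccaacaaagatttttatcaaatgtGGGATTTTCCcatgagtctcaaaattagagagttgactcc
Cxcl3: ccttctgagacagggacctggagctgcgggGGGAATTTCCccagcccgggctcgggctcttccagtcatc
Csf1: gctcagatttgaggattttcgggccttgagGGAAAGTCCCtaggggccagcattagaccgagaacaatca
*Cxcl1* and *Cxcl2*, both neutrophil chemokines, held 2 matches each. *Cxcl3*, a close relative, was at 2.66, 48.3, 2.24 and 2.06 with DOX and lost its call without both libraries (adjusted p = 0.084). *Csf1*, a growth factor for macrophages, went from 82.6, 78.3 and 55.8 to 138, 234, 143 and 131 (1.13, adjusted p = 0.026). Only letters were searched here, and no factor was measured.

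The NF-kB pathway genes themselves gave 4 rises of 27 (14.8%, against 9.15% of all genes) and 0 falls, and 3 rises without both libraries. *Nfkbib*, an inhibitor of NF-kB, went from 29.8, 34.1 and 30.8 to 114, 121, 116 and 113, the tightest of these groups (1.85, adjusted p = 9.7e-06, limma). *Relb*, a subunit of the noncanonical pathway, rose by 1.38, and *Nfkbia*, the main inhibitor, rose by 1.25 with all libraries and reached 0.84 without both, below the fold threshold. AP-1 and immediate early genes gave 5 rises of 34 (14.7%) and 0 falls. Beside *Atf3* these were *Klf4* and *Ier5*, factors of the early response, with *Fos* and *Fosb*. *Fos* was at 2.88, 0.670 and 0.825 in control and at 3.38, 11.8, 3.50 and 3.76 with DOX, with DOX replicate 2 alone high (1.37, adjusted p = 0.033).

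Surface ligand genes rose where they passed, and genes of the EGF receptor pathway moved in both directions. *Vcam1*, an adhesion ligand, was at 93.0, 101 and 106 in control and at 212, 198, 199.9 and 235 with DOX (1.07, adjusted p = 0.00068, limma), and *Ulbp1*, a ligand of the killer cell receptor NKG2D, rose by 1.08 from values near 2. In all 4 of 16 such ligand genes rose (25.0%) and 0 fell. The EGF receptor ligands *Areg*, *Epgn* and *Btc* rose by 1.64, 1.57 and 1.39. *Areg*, for amphiregulin, was at 8.97, 9.01 and 7.07 in control and at 32.0, 24.6, 30.2 and 26 with DOX. The receptor genes *Erbb2* and *Met* fell, *Erbb2* from 25.7, 14.9 and 23.2 to 7.97, 7.55, 7.69 and 6.97 (-1.35, adjusted p = 0.0066). In this list of 16 tested genes 3 rose (18.8%) and 2 fell (12.5%).

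Calls among genes of the ribosome were mostly upward for its assembly factors, while for its proteins they were near the share of all genes. The difference was not tested. Of 66 genes for RNA polymerase I and pre-rRNA processing, 19 rose (28.8%) and 1 fell, and without control replicate 1 and DOX replicate 1, 25 rose and 1 fell. *Nop2*, which methylates rRNA, went from 57.7, 38.8 and 28.4 to 106, 134, 128 and 124 (1.59, adjusted p = 0.00043, limma). *Utp4*, of the small subunit processome, went from 23.9, 70.0 and 45.0 to 137, 167, 142 and 150.2, and *Nip7* and *Rrp9* rose by 1.72 and 1.49. The member that fell was *Npm1*, the nucleolar chaperone nucleophosmin, at 8554, 6472 and 6872 in control and 3574, 3461, 2945 and 3357 with DOX. Of 86 cytosolic ribosomal protein genes 0 rose and 6 fell (6.98%, near the 6.18% of all genes), with a median of -0.40. Without both libraries 7 fell. The mean log2 level of the list was 9.59 in control replicate 1, within the 9.46 to 9.69 of the DOX libraries, and 10.1 and 10.2 in the other controls. *Rpl41* was at 11156, 5629 and 7183 in control and at 3247, 3239, 2913 and 3173 with DOX, and *Rps15* fell by 1.26. Reads of such genes can be split with processed pseudogenes, so their values are uncertain. Of 75 mitochondrial ribosomal protein genes 6 rose and 0 fell, and of 81 respiratory chain genes 4 rose and 1 fell, shares below those of all genes. Their medians were both 0.35, above the 0.09 of all genes. Leaving out both libraries, the medians were 0.42 and 0.20, against 0.07 over all genes, with 5 and 2 rises and 1 fall in each list. *Uqcrq*, a subunit of complex III, was the clearest, at 103, 146 and 132 in control and 315, 355, 337 and 386 with DOX (1.46, adjusted p = 0.00016).

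**Figure D4:**
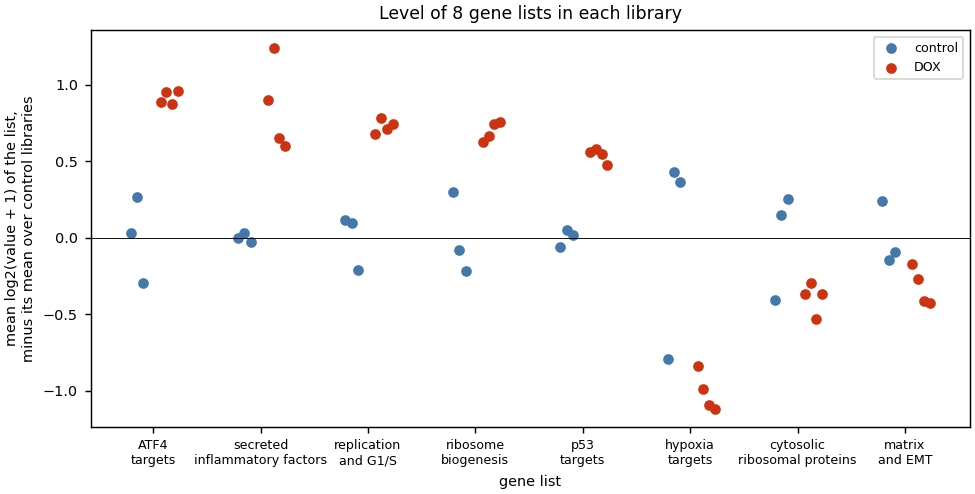
Mean log2(value + 1) of 8 gene lists in each library, minus the mean over the control libraries (blue control, n = 3, red DOX, n = 4). The DOX points of ATF4 targets, replication genes, ribosome biogenesis genes and p53 targets lie above the control points. In the hypoxia list control replicate 1 lies near the DOX libraries, and in the cytosolic ribosomal protein list it lies among them.

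Hypoxia targets had the largest share of falls among the lists not set aside. Of 32 genes that low oxygen induces and that are not glycolytic, 16 fell (50%) and 1 rose, with a median of -1.12. *Adm*, for the vasodilator adrenomedullin, went from 13.5, 43.2 and 48.7 to 4.83, 3.18, 2.66 and 3.13 (-2.86, adjusted p = 0.0011, limma). *Egln3*, a prolyl hydroxylase that marks HIF for degradation, went from 34.3, 63.3 and 72.5 to 15, 14.7, 10.1 and 9.21, and *Ero1l*, a thiol oxidase of the endoplasmic reticulum, from 124, 199 and 259.6 to 58.8, 43.8, 47.3 and 42.1. In each of these control replicate 1 was the control nearest to the DOX libraries. The mean log2 level of the list was 5.03 in the lowest control library and 6.25 in the highest, and 4.70 to 4.98 with DOX. Without control replicate 1 and DOX replicate 1, 21 members fell and 0 rose. The member that rose with all libraries was *Stc2*, a secreted glycoprotein gene that is also an ATF4 target.

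Epithelial and matrix genes fell more often than they rose. Of 60 tested, 10 fell (16.7%) and 2 rose, and 9 fell and 0 rose without both libraries. *Epcam*, the epithelial adhesion molecule, went from 733, 432 and 453 to 206, 205, 173 and 161 (-1.5, adjusted p = 0.00039, limma), and *Itga3*, a laminin-binding integrin, from 443, 270.4 and 278 to 141, 124, 118 and 105. The collagen genes *Col18a1*, *Col4a5*, *Col16a1* and *Col5a1* and the laminin genes *Lama5* and *Lamb2* fell by 1.33, 1.14, 1.12, 1.11, 1.32 and 1.06. *Cdh1*, for E-cadherin, did not pass (-0.67, adjusted p = 0.20). Of 78 cornified envelope and squamous genes 16 were listed and 14 tested, of which 3 rose and 3 fell (21.4% each). Without both libraries 3 rose and 1 fell. *Krt16*, a stress keratin, went from 5.92, 1.40 and 0.943 to 11.0, 7.99, 14.8 and 15.6, *Krt17*, a related keratin, rose by 2.06, and *Dsc2*, a desmosomal cadherin, fell by 1.92. Of 79 germ cell genes 26 were listed and 17 tested, of which 3 rose (17.6%) and 0 fell. Besides *Sycp1* these were *Tex15*, of meiotic recombination, and *Speer3*, of a family of near copies, both listed at 0 in every control. Genes at 0 in control passed the filter only through other libraries, where they were higher. The share of tested genes that rose is therefore inflated and is a description only.

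Antioxidant and lysosomal genes showed few calls, against 9.15% up and 6.18% down over all genes, and sterol genes were called only downward. Of 36 NRF2 targets 2 rose and 2 fell (5.56% each), and without both libraries 0 rose and 4 fell. *Gstm1*, a glutathione transferase, went from 25.9, 35.8 and 38.7 to 3.86, 6.13, 5.73 and 2.32 (-2.69, adjusted p = 0.00014, limma). *Gstm5*, a related transferase, lost its call without both. Of 62 lysosomal genes 2 rose and 2 fell (3.23% each), and without both libraries 2 rose and 4 fell. *Naglu*, which degrades heparan sulfate, had the largest change of these, from 67.2, 27.6 and 36.0 to 5.79, 5.58, 2.10 and 4.65 (-2.98, adjusted p = 0.0011). Of 27 cholesterol genes 0 rose and 3 fell (11.1%), *Pmvk*, *Stard4* and *Dhcr7*, of sterol synthesis and transport. The median of the list was -0.60, and -0.39 without both libraries. Of the 3 that fell, *Pmvk* alone kept its call without both libraries. With a replicate block 8 of the 27 fell.

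The DOX effect was also measured in cells exposed to IL-17A, between libraries that the first comparison did not set against each other, though both drew on a single estimate of the spread. DOX+IL-17A against IL-17A gave 606 rises and 606 falls (4.92% each of 12319). Of the 1127 genes that rose with DOX alone, 385 were called up there (34.2%, and 63.5% of the 606), and of the 761 that fell, 365 were called down (48.0%, and 60.2%). None was called in opposite directions. The estimate was positive for 1076 of the 1127 and negative for 745 of the 761, where 51.3% of all genes were positive. The median log2 fold change of the genes that rose was 1.43 with DOX alone and 0.95 with IL-17A present, and of those that fell -1.33 and -1.09. The first value of each pair comes from the contrast that chose the genes. Of the 12 genes that rose most 8 were called up (9 with the replicate block), and of the 12 that fell most 10 were called down.

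For no gene did the DOX effect differ with IL-17A at an adjusted p under 0.05 (limma, 0 genes, with 556 at an unadjusted p under 0.05). voom and edgeR also gave 0 and DESeq2 gave 18. Some named genes differed in size between the comparisons. *Bid* had 2.10 with DOX alone and 0.02 with IL-17A present, and *Tnfrsf12a*, the receptor of the cytokine TWEAK, 2.19 and -0.39. *Gja1* had -2.59 and -0.59, and *Il6* 2.51 and 3.60. None of these differences passed (adjusted p = 0.90 for each, limma). Among lists, ATF4 targets gave 14 rises and 1 fall of 34 with IL-17A present, and hypoxia targets 16 falls of 32. Ribosome biogenesis genes gave 15 rises of 66, secreted factors 14 rises of 44 and replication genes 9 rises of 55 (19 with DOX alone). Over all genes 4.92% rose and 4.92% fell, against 9.15% and 6.18% with DOX alone, so fewer calls are not particular to a list. Other lists gave fewer calls or moved differently. Death receptor and pyroptosis genes gave 3 rises of 22 (9 with DOX alone), and repair genes 6 rises and 3 falls of 87 (16 and 2), with 6 falls when the replicate number was a block. Matrix genes gave 5 falls of 60 and a median of 0.03 (10 falls and -0.45), and p53 targets 8 rises and 3 falls of 34 (8 and 0). Cholesterol genes gave 0 falls of 27 (3), and 5 with the block. Whether a list differed between the comparisons was not tested.

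**Figure D5:**
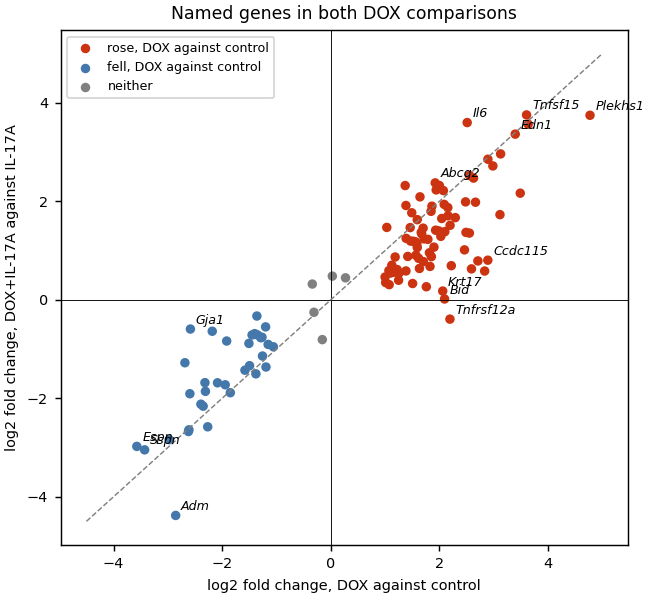
Log2 fold change of the 122 named genes for DOX against control (horizontal) and for DOX+IL-17A against IL-17A (vertical), which share no library. Points are red where the gene rose with DOX alone, blue where it fell and grey where neither, and the dashed line marks equal values. *Plekhs1* (4.77 and 3.75) lies at the upper right and *Espn* (-3.57 and -2.98) at the lower left, while *Bid* (2.10 and 0.02) lies near the horizontal axis.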

How the data were processed

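RNA of 4T1 cultures was sequenced from the 3' end of polyadenylated transcripts. Per the study's methods and labels, the authors used FastQC, Trimmomatic, STAR (mm10) and featureCounts. The deposited signal is CPM scaled by TMM factors, which adjust for RNA composition. It has 13223 rows, of which 1 identical *Ifit1* row was dropped, and 17 names stored as dates were restored. Dividing by what 1 read is worth in each library gave whole reads for 100% of values (tolerance 0.01).

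Values were tested as log2(value + 1) with limma 3.58.1 (trend, all 13 libraries, condition as only factor) on 12319 genes kept by edgeR 4.0.16 filterByExpr. A gene rose or fell where its p, adjusted by Benjamini-Hochberg over all genes, was under 0.05 and its fold above 2. Replicate numbers did not pair DOX with control libraries (the shared numbers 1 and 3 correlated at 0.19 and -0.03). They met the criterion (every correlation above 0.1) for DOX+IL-17A and IL-17A, at 0.17, 0.20 and 0.35, with no pairing stated in the labels, and the blocked values are given where a count moved by over 1.5 times. The gene lists and comparisons were chosen with earlier results of these data known.

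Named genes are the 12 largest rises and 12 largest falls among called genes at or above the median level with groups that did not overlap (interferon, glycolysis and replication histone lists left out), up to 4 called genes with the largest change per other list, all listed topoisomerases and *Abcb1* or *Abcg2* pumps, and up to 8 genes with at most 3 reads over one group and at least 10 in every library of the other. Further list members are given with their values. Alternatives were library-size scaling, other filters, a pseudocount of 0.1, voom, edgeR, DESeq2 1.42.0, a fit of the compared groups, a replicate block, the adjusted p alone, and libraries left out. Methods were tested on simulated data. Gene spans come from GENCODE M21, and promoter sequences and motifs from RefSeq (GRCm38.p6). R 4.3.3, python 3.11.15, pandas 2.3.3, numpy 2.4.6 and scipy 1.17.1 were used.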

Additional observations from a re-analysis of the deposited data

Results flagged for a closer look

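Among the 122 named genes, 3 had a DOX library far from the other 3 by Dixon's gap test (the gap to the nearest library over the whole range), which chance passes in about 5% of groups of 4. *Fos* was at 11.8 in DOX replicate 2 and between 3.38 and 3.76 in the others. *Tnfrsf12a* was at 46.9 in DOX replicate 2 and between 21.6 and 25.6 in the others. *Ndufs5*, a subunit of respiratory complex I, was at 70.3 in DOX replicate 1 and between 96.8 and 98.7 in the others.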

How the results depend on the processing

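Counts of genes moved by more than 1.5 times under few alternatives. With libraries scaled by size alone, 488 genes fell with DOX, DOX+IL-17A against IL-17A gave 1017 rises and 381 falls, and 653 rose and 229 fell in both comparisons. With the adjusted p alone, 1196 genes fell with DOX and 575 in both comparisons. DESeq2 gave 18 genes with a different DOX effect with IL-17A, against 0. Leaving out each of the 13 libraries in turn, the DOX counts lay between 858 and 1396 up and between 585 and 892 down. DOX+IL-17A against IL-17A gave 283 to 827 up and 378 to 777 down (283 and 383 without IL-17A replicate 3, 387 and 378 without IL-17A replicate 5). Genes called in both comparisons ranged from 216 to 477 up and from 227 to 458 down, with 254 up without DOX+IL-17A replicate 2, and genes with a different DOX effect from 0 to 1.

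A replicate block in the model left 837 rises and 540 falls with DOX, and 13 of the 122 named genes lost their call. DOX+IL-17A against IL-17A, whose numbers met the criterion for pairing, gave 679 rises and 678 falls with the block, against 606 each. For DOX against control they did not. Over all groups, same-numbered libraries correlated at 0.15 on average (13 pairs) against -0.04 for others (50 pairs). Of the 122 named genes, 82 kept their side of both thresholds in all 23 alternatives that gave them a value, and 0 changed sign with a call. Without control replicate 1 and DOX replicate 1 together, 29 lost their call. The median of the doxorubicin target and handling list (0.07) changed sign in 5 settings. The difference between genes over 200 kb and under 10 kb (-0.56) lay between -0.70 and -0.50 over 23 settings, an alternative set chosen after the data were seen. Genes with values near 0 are limited by depth, as 3 reads are 0.183 to 0.508 units in the 7 libraries.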

Other observations

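The DOX libraries differed among themselves in sterol and chemokine genes. *Cyp51*, a demethylase of cholesterol synthesis, was at 248, 225, 75.1 and 79.4 in DOX replicates 1 to 4, and at 485, 208 and 211 in control. *Idi1*, an isomerase of the same pathway, was at 51.6, 144, 10.8 and 9.30 with DOX, against 37.0, 18.2 and 19.3 in control. The mean log2 level of the 27 cholesterol genes ran from 4.83 to 6.14 over the DOX libraries, a wider range than that of the ATF4 list (5.38 to 5.47). *Il1a*, an interleukin released by stressed cells, was at 32.9, 42.6, 7.13 and 14.5 with DOX and between 5.85 and 6.60 in control. The labels give no batch for these libraries, and the values are given without a test.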
